A study of Mus musculus with 6 samples.

Results

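Nucleic acid sensors are the proteins by which a cell notices viral or misplaced RNA and DNA. The genes described here were chosen by symbol and are 10 of the 55377 genes in the count tables: Ifih1, Dhx58, Mavs, Tlr3, Cgas, Sting1, Tbk1, Ikbke, Eif2ak2 and Adar. All 10 were found once each in every library, and all 10 passed the filter on low counts. They were measured by RNA-seq in primary cultures of mouse articular chondrocytes, the cells that make cartilage matrix, 36 h after siRNA transfection. One group of 3 libraries received a control siRNA and is labelled control in the genotype field; the other group of 3 received Irf1 siRNA and is labelled Irf1-knockdown. The targeted gene, Irf1, codes for an interferon regulatory factor, which binds promoters of many interferon-responsive genes. Both groups were transfected, so the values give no level in untransfected cells, and the labels name no stimulus besides the siRNA. No label says that the 3 libraries of a group stem from different animals or culture dishes. The p-values therefore rest on the spread among these libraries, and that spread may be technical only.

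Double-stranded RNA in the cytosol is bound by MDA5 (Ifih1), whose signal passes through the mitochondrial adaptor MAVS, and LGP2 (Dhx58) modulates that pathway without signalling on its own. Double-stranded RNA in endosomes is bound by Toll-like receptor 3 (Tlr3), which signals through the adaptor TRIF. DNA in the cytosol is bound by cGAS, which makes the messenger cGAMP, and cGAMP activates STING. These routes meet at the kinases TBK1 and IKK epsilon (Ikbke), which phosphorylate IRF3 and so start interferon transcription. PKR (Eif2ak2) answers the same RNA by halting translation, and ADAR edits adenosines in cellular double-stranded RNA, which keeps it from being sensed. Several of these genes are themselves induced by interferon, and IRF family proteins bind a core with the letters AANNGAAA.

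Library totals ran from 22349142 to 29282494 counts, and each Irf1 siRNA library was shallower than each control library. Irf1 itself had 312, 355 and 362 counts with control siRNA and 125, 140 and 141 with Irf1 siRNA, a log2 fold change of −1.10 (SE 0.11, edgeR adjusted p = 3.0e-06), so all 6 libraries lay on the side of their label. Over all 14683 tested genes, 22.4% were past the threshold of an adjusted p under 0.05, made up of 12.0% lower and 10.4% higher (1767 and 1522 genes). With upper-quartile factors the balance was the other way, at 1548 lower and 1853 higher. Groups did not overlap for 38.1% of the tested genes, 19.5% lower and 18.6% higher. The 12 chondrocyte markers summed to 90180 to 117900 CPM (TMM-normalised read counts scaled to a common library size) with control siRNA and 90140 to 117800 with Irf1 siRNA, sums made up mostly of Col2a1. One of the 12, the matrix link protein gene Hapln1, was called lower, from 1877 ± 36.7 to 915.1 ± 59.7 CPM (log2 fold change −1.04, adjusted p = 1.6e-08). Of 11 macrophage markers, Adgre1, Fcgr1 and C1qb were at 0 in every library. Another 4, Cd68, Cd14, Mrc1 and Lyz2, had enough counts to be tested. Cd68 was at 6.815 ± 1.114 CPM with control siRNA and 9.001 ± 0.539 with Irf1 siRNA, and Cd14 at 5.602 ± 0.632 and 7.916 ± 0.136. Mrc1 was at 3.306 ± 0.809 and 3.145 ± 0.371 CPM, with overlapping groups. Siglech, Cd3e and Nkg7, markers of plasmacytoid dendritic and lymphoid cells, were at 0 in every library.

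Promoter sequence is shown for the members whose start region holds the IRF core, since the comparison lowers an IRF. RefSeq windows (GRCm38.p6, from 250 bases before to 50 after an annotated start) were searched for 8 of the 10 genes. Dhx58 and Sting1 were not part of the search. Whether RefSeq holds a window for them, and whether it has the core, is therefore not shown here. Positions are on GRCm38.p6 and not on the GRCm39 build of the count tables. Capitals mark AANNGAAA on either strand, read 5′ to 3′ along the gene. The Tlr3 window is given whole, because Tlr3 was the member that fell, and the others as 40 bases around the match.
Tlr3, chr8:45410331-45410630, minus strand: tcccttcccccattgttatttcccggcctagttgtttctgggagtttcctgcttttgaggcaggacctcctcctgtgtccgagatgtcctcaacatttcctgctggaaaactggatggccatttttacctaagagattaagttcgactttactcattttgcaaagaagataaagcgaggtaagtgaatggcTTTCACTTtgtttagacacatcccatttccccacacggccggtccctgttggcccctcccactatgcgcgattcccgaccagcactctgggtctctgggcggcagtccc
Ifih1, chr2:62646206-62646245, minus strand: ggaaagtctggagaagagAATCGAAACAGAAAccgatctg
Eif2ak2, chr17:78882529-78882568, minus strand: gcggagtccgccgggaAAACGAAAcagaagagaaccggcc
Adar, chr3:89730728-89730767, plus strand: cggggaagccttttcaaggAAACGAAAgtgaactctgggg
Ikbke, chr1:131279672-131279711, minus strand: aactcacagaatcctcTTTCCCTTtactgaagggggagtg

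The core was found in 5 of the 8 genes, with 2 overlapping matches in Ifih1 and 1 of the 3 Adar windows holding it. It was not found in the windows of Mavs, Cgas and Tbk1. These letters are common: 23.9% of the 32851 RefSeq windows of 300 bases hold them. By gene, counted where any window of the gene holds them, the share was 20.7% of 10705 tested genes. It was 19.9% of the genes called lower and 17.7% of those called higher. The longer interferon-response form GAAANNGAAA, which contains the core, was found in Ifih1 and Eif2ak2 and in 3.44% of all windows, and the STAT-type motif TTCNNNGAA in Eif2ak2 and 1 Adar window (8.3% of all windows). The core was added to the search after the Tlr3 window had been seen. Its match in Tlr3 was therefore known beforehand, and the count of 5 of the 8 genes, which includes Tlr3, supports nothing. A match describes the letters and not a bound site.

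With Irf1 siRNA, 1 of the 10 genes fell (Tlr3), 1 rose (Cgas) and 8 did not pass the threshold. Set beside the 12.0% lower and 10.4% higher among all tested genes, these counts are near the background. The same 2 genes were the ones whose groups did not overlap, against 38.1% of all tested genes. The median log2 fold change of the 10 was 0.01, and that of all tested genes was 0.00. The 10 genes together summed to 168.9 to 176.0 CPM in the control libraries and 167.9 to 171.9 in the Irf1 siRNA libraries. These sums were made up mostly of Tbk1, Adar, Eif2ak2 and Mavs (control means 41.5, 39.0, 30.4 and 25.8 CPM). Tlr3 and Cgas, at 4.41 and 2.64 CPM, weighed little in them.

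**Figure D1:**
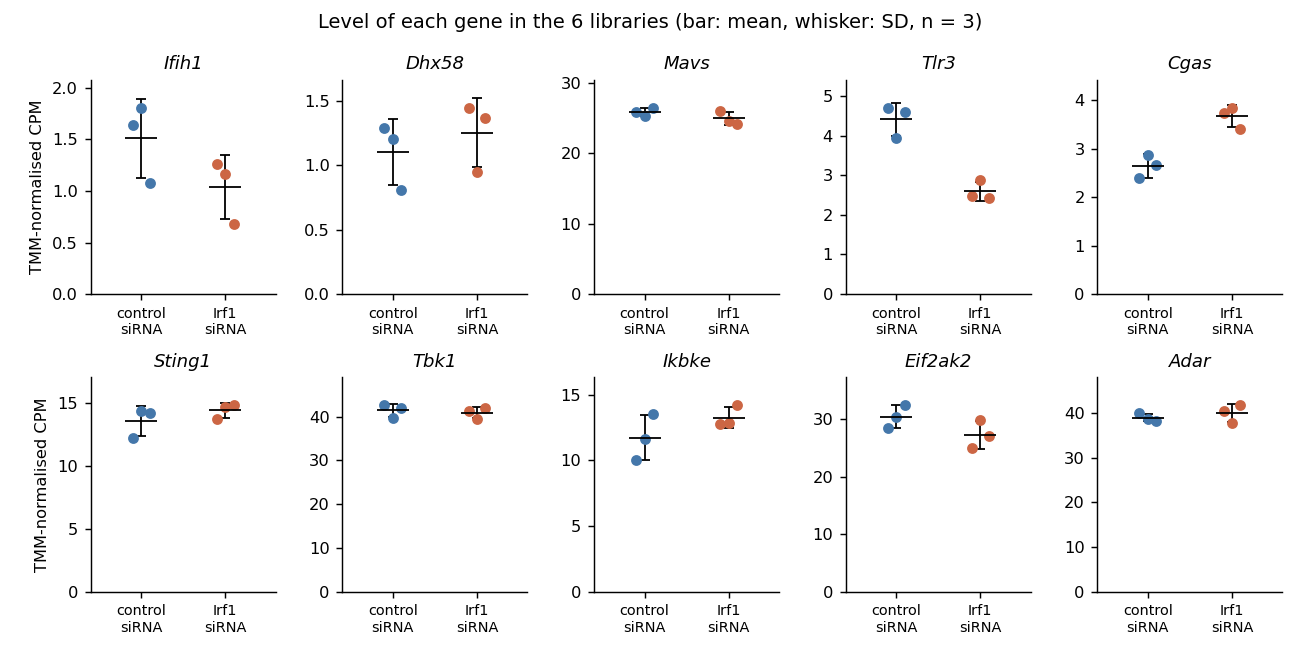
TMM-normalised CPM of each of the 10 genes (vertical axes start at 0) in the 3 control siRNA and 3 Irf1 siRNA libraries; points are libraries, the bar is the mean and the whisker the SD. The groups are apart for Tlr3 (lower) and Cgas (higher) and overlap for the other 8 genes.

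Tlr3 (ENSMUSG00000031639.13), the endosomal receptor for double-stranded RNA, had 132, 111 and 136 counts with control siRNA and 55, 79 and 57 with Irf1 siRNA. In CPM these were 4.71, 3.94 and 4.59 against 2.48, 2.87 and 2.43. Every Irf1 siRNA library lay below every control library. The mean went from 4.41 ± 0.416 to 2.60 ± 0.238 CPM (SD, n = 3), which left 59.1% of the transcript, a log2 fold change of −0.76 (SE 0.15, 95% interval −1.09 to −0.43, edgeR adjusted p = 0.0023). It ranked 1067 of 14683 genes by p-value. In bulk RNA, fewer cells that express a gene and less RNA per cell cannot be told apart. The 11 macrophage markers summed to 16.3 to 20.7 CPM with control siRNA and 21.1 to 21.7 with Irf1 siRNA, and their members moved in both directions. Cd68 and Cd14 were called higher. Lyz2 was at 1.57 ± 0.251 and 0.975 ± 0.191 CPM with no overlap between the groups (adjusted p = 0.0566). Csf1r, with 33 and 21 counts per group, also did not overlap and was lower, and Ptprc had 20 and 9; both were too low to be tested. The 8 markers of fibroblasts and synovium summed to 4936 to 6000 and 3673 to 4572 CPM. These sums were made up mostly of Col1a1 (4083 ± 468 and 2865 ± 393 CPM) and Col3a1 (854 ± 64.1 and 582 ± 75.4 CPM). Of the 8 markers, Col1a1 and Col3a1 were called lower and Prg4 higher. Dcn was at 427 ± 17.7 and 432 ± 17.6 CPM and Pdgfra at 72.0 ± 6.58 and 72.6 ± 2.19 CPM, with overlapping groups. Thy1 was at 9.16 ± 0.872 and 7.45 ± 0.580 CPM with no overlap between the groups (edgeR adjusted p = 0.0651). Dpt and Pi16 had at most 4 and 6 counts in any library. The part of these cells in the Tlr3 result was not tested.

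Among the endosomal nucleic acid receptors Tlr3, Tlr7, Tlr8, Tlr9 and Tlr13, Tlr3 alone passed the filter on low counts. Over all 6 libraries Tlr8 had 0 counts, Tlr9 had 1 count in 1 control library, and Tlr7 and Tlr13 had at most 2 and 5 counts in any library. Ticam1, which encodes TRIF, was at 11.9 ± 0.227 and 12.4 ± 0.887 CPM (log2 fold change 0.05, adjusted p = 0.735). Unc93b1, the chaperone that brings these receptors to endosomes, was named after its values were seen. It was at 11.7 ± 1.14 and 9.49 ± 0.903 CPM with overlapping groups. Its log2 fold change was −0.30, and its edgeR adjusted p of 0.0517 missed the threshold.

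Some transcripts that fell in this series carry 7-base words that earlier work on these data picked for going with falls, so Tlr3 was searched for them. None of the 4 words searched, namely ACTGATC and CTGATCA as well as GCTATCT and CTATCTA, was in a 3′ UTR of Tlr3 annotated in GENCODE M21, while CTGATCA and GCTATCT were both in its coding sequence. Any of the words occurred in an annotated 3′ UTR for 46.7% of genes called lower, 16.1% of those called higher and 22.9% of the rest, and in the coding sequence for 32.4%, 16.1% and 21.3%. The words were picked on falls in these same data, so a higher share among genes called lower is built in and supports nothing. Both of the words that Tlr3 holds were found together in the coding sequence of 1.82%, 0.636% and 1.17%. That pair was picked because Tlr3, a gene that fell, holds it, so these shares support nothing either. Among the other members, Mavs and Tbk1 hold CTGATCA in the 3′ UTR and the coding sequence, and Ifih1 holds ACTGATC in the coding sequence, and none of these 3 passed the threshold. Cgas, Sting1, Dhx58, Ikbke, Eif2ak2 and Adar hold none. The part of these words in the Tlr3 result was not tested.

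Ifih1 (ENSMUSG00000026896.15), the gene of MDA5, was near the lower end of what these libraries count. It had 46, 51 and 32 counts with control siRNA and 28, 32 and 16 with Irf1 siRNA, or 1.64, 1.81 and 1.08 against 1.26, 1.16 and 0.683 CPM. The groups overlapped, because the third control library lay below 2 of the Irf1 siRNA libraries. The log2 fold change of −0.53 (SE 0.28, adjusted p = 0.192) had an interval from −1.13 to 0.06, which holds both no change and a fall of the size seen in Tlr3. Without Irf1 siRNA replicate 3 it was −0.32, and without control replicate 3 it was −0.73.

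Dhx58 (ENSMUSG00000017830.16), the gene of LGP2, had 36, 34 and 24 counts with control siRNA and 32, 26 and 32 with Irf1 siRNA, or 1.28, 1.21 and 0.810 against 1.44, 0.944 and 1.37 CPM. The groups overlapped, and the log2 fold change of 0.18 (SE 0.27, adjusted p = 0.686) had an interval from −0.39 to 0.74. Without the third control library it was −0.01, so its sign rested on that library. The antisense gene Dhx58os (ENSMUSG00000085604.2), which shares 141 exon bases with Dhx58 on the opposite strand in GENCODE M21, was more abundant and did change. It was named after its values were seen. Dhx58os had 183, 179 and 211 counts with control siRNA and 344, 354 and 308 with Irf1 siRNA, with no overlap between the groups. Its mean went from 6.67 ± 0.406 to 13.8 ± 1.46 CPM (SD, n = 3), a log2 fold change of 1.05 (SE 0.11, edgeR adjusted p = 4.2e-06) that ranked 156 by p-value. All 12 other settings kept the call, with log2 fold changes from 0.96 to 1.10. The kit keeps strand, but the strand setting of the counting is not given in the sources used here, so reads in the shared bases may belong to either gene.

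The retinoic acid-inducible receptor gene Ddx58, a further sensor of the same family that is not among the 10, was named after its values were seen. It was at 25.6 ± 0.975 and 24.4 ± 0.733 CPM (log2 fold change −0.07, adjusted p = 0.529). Mavs (ENSMUSG00000037523.14), the adaptor downstream of MDA5, had 25.8, 25.3 and 26.4 CPM with control siRNA and 26.0, 24.6 and 24.2 with Irf1 siRNA. The groups overlapped, and the log2 fold change of −0.05 (adjusted p = 0.634) had an interval from −0.20 to 0.09.

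Cgas (ENSMUSG00000032344.18), the DNA sensor that makes cGAMP, had 67, 81 and 79 counts with control siRNA and 83, 106 and 80 with Irf1 siRNA. Scaled for depth these were 2.39, 2.87 and 2.67 against 3.75, 3.85 and 3.42 CPM, so every Irf1 siRNA library lay above every control library. The mean went from 2.64 ± 0.242 to 3.67 ± 0.226 CPM (SD, n = 3), a 1.39-fold rise (log2 fold change 0.47, SE 0.16, 95% interval 0.14 to 0.81, edgeR adjusted p = 0.0394). This call was close to the threshold. It was lost without any 1 of the 6 libraries (adjusted p from 0.0548 to 0.118), with DESeq2 (0.0878) and with no filter on low counts (0.0689), while the log2 fold change stayed between 0.41 and 0.54 in all 12 other settings. Gm8093, a pseudogene on the opposite strand that shares 201 exon bases with Cgas, had 0 to 3 counts in each library.

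**Figure D2:**
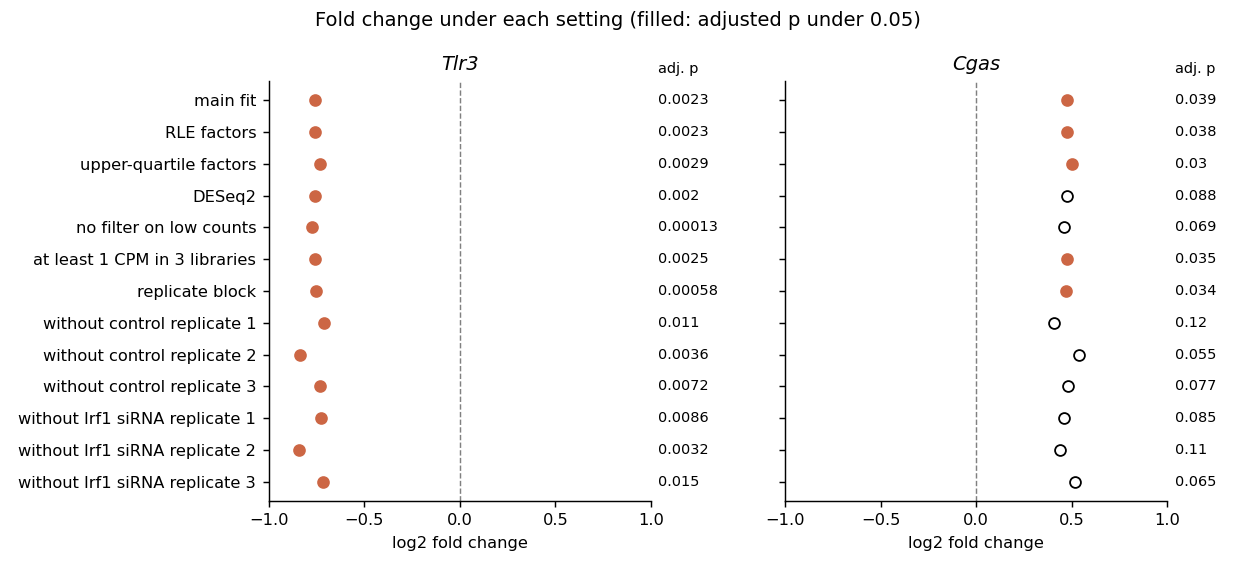
Log2 fold change of Tlr3 (left) and Cgas (right) in the main fit and the 12 other settings, with the adjusted p beside each point; filled points have an adjusted p under 0.05. Tlr3 was past the threshold in every setting shown, and Cgas in the main fit and 4 of the other 12, with the same sign throughout.

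Sting1 (ENSMUSG00000024349.11), the receptor of cGAMP, was at 12.2, 14.4 and 14.2 CPM with control siRNA and 13.8, 14.7 and 14.8 with Irf1 siRNA. The lowest Irf1 siRNA library lay below 2 control libraries, and the log2 fold change was 0.09 (adjusted p = 0.536, interval −0.10 to 0.28). The other genes of DNA sensing, cyclic dinucleotide turnover and nucleases were 25 on the list and 21 tested, of which 1 rose and 2 fell, with a median of −0.05. Enpp1, which encodes an ectonucleotidase that hydrolyses cGAMP outside cells, rose from 93.8 ± 6.49 to 120.4 ± 2.95 CPM (log2 fold change 0.36, adjusted p = 5.4e-04). Ifi204, an interferon-inducible gene of a family that binds DNA, fell from 15.6 ± 0.831 to 10.3 ± 0.870 CPM (log2 fold change −0.60, adjusted p = 2.4e-04). Slc19a1, a folate carrier that also takes up cyclic dinucleotides, was lower, with a log2 fold change of −0.22 (adjusted p = 0.0393). DESeq2, upper-quartile factors and the removal of any 1 of 4 libraries ended that call (control replicates 1 and 2, Irf1 siRNA replicates 2 and 3; adjusted p up to 0.173).

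The kinases where the routes meet did not pass the threshold. Tbk1 (ENSMUSG00000020115.4) was at 42.6, 39.7 and 42.1 CPM with control siRNA and 41.3, 39.5 and 42.1 with Irf1 siRNA. The 2 groups cover nearly the same range, and the log2 fold change was −0.02 (SE 0.06, adjusted p = 0.868, interval −0.15 to 0.11). Ikbke (ENSMUSG00000042349.14) was at 10.1, 11.6 and 13.5 CPM with control siRNA and 12.7, 12.8 and 14.2 with Irf1 siRNA. Its control libraries were the more spread of the 2 groups, and the log2 fold change was 0.17 (adjusted p = 0.278, interval −0.06 to 0.40).

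PKR and ADAR, which act on double-stranded RNA outside the interferon-inducing routes, did not pass the threshold either. Eif2ak2 (ENSMUSG00000024079.5) was at 28.4, 30.4 and 32.3 CPM with control siRNA and 25.0, 29.8 and 27.0 with Irf1 siRNA. Only the second Irf1 siRNA library reached into the control range, and the log2 fold change was −0.15 (adjusted p = 0.191, interval −0.32 to 0.02). Adar (ENSMUSG00000027951.17) was at 39.95, 38.7 and 38.3 CPM with control siRNA and 40.5, 37.7 and 41.7 with Irf1 siRNA. Its log2 fold change was 0.04 (adjusted p = 0.738, interval −0.10 to 0.17). Adar shares 1365 exon bases with Chrnb2 on the opposite strand, which had 36 to 52 counts in a library against 898 to 1135 for Adar. Counts are per gene, so the interferon-induced and constitutive Adar transcripts were not separated.

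**Figure D3:**
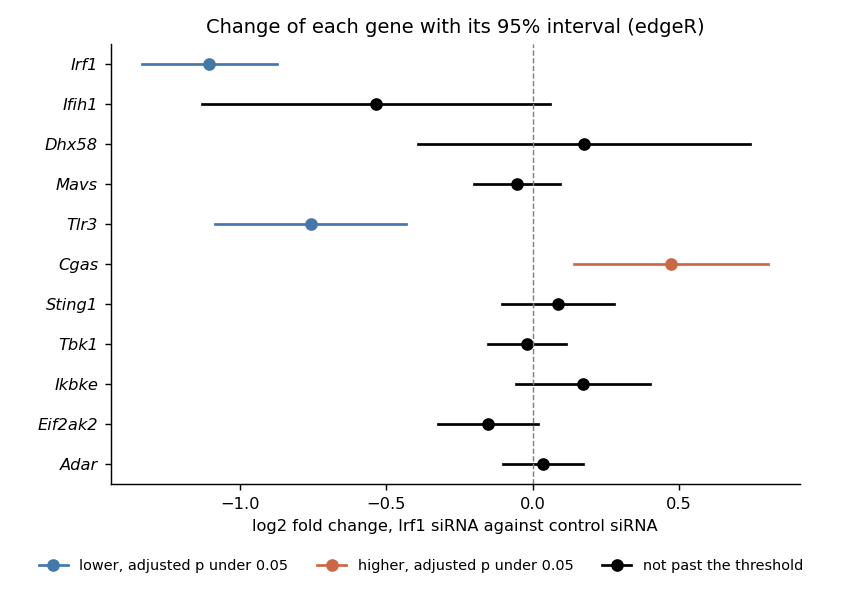
Log2 fold change of Irf1 and the 10 genes, Irf1 siRNA against control siRNA, with 95% intervals from the edgeR fit. Tlr3 and Irf1 lie below 0 and Cgas above it; the intervals of Tbk1, Adar and Mavs are the narrowest of the 10, and those of Ifih1 and Dhx58 are the widest of the 10.

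Levels between genes were compared per kilobase of exon, with lengths taken over all exons of a gene annotated in GENCODE M21, whether used in these cells or not. In the control libraries the order was Tbk1 (10.6 ± 0.392 CPM per kilobase, SD, n = 3), Mavs (7.72 ± 0.173), Eif2ak2 (5.94 ± 0.39), Sting1 (4.95 ± 0.438), Adar (4.80 ± 0.105), Ikbke (1.30 ± 0.191), Tlr3 (0.847 ± 0.0800), Cgas (0.641 ± 0.0587), Dhx58 (0.336 ± 0.0776) and Ifih1 (0.185 ± 0.0467). Sting1 and Adar overlapped across the control libraries, and every other neighbouring pair in this order was apart. The adaptors and kinases thus lay above the sensors Tlr3, Cgas, Dhx58 and Ifih1 on this scale. Tbk1 was above 72.5% of the tested genes and Ifih1 above 5.88%. With Irf1 siRNA, Cgas at 0.890 ± 0.0549 CPM per kilobase stood above Tlr3 at 0.499 ± 0.0458, the reverse of their control order.

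**Figure D4:**
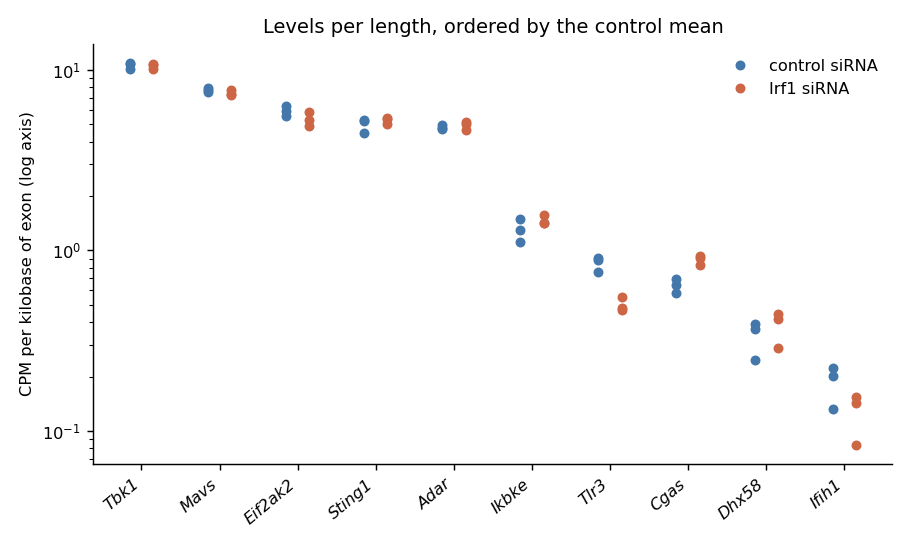
CPM per kilobase of annotated exon (log axis) of the 10 genes in each library, ordered by the control mean; blue points are control siRNA and orange points Irf1 siRNA libraries. Tbk1 is highest at about 10.6 and Ifih1 lowest at 0.185 in the control group, and Tlr3 and Cgas change places between the groups.

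The rest of the pathway was read from 7 lists of 177 genes, of which 148 were tested, 13 rose and 13 fell, or 8.78% in each direction, against 10.4% higher and 12.0% lower among all tested genes. The counts of single lists are small and are descriptions only. Of 30 genes of RNA sensing and double-stranded RNA binding, 22 were tested, 1 rose, with a median log2 fold change of −0.06. The riser was Oasl1, a 2′-5′-oligoadenylate synthetase-like gene, with 7, 8 and 3 counts against 14, 10 and 14 (log2 fold change 1.30, adjusted p = 0.0492). Its call was lost without any 1 library except Irf1 siRNA replicate 2 and with no filter on low counts (adjusted p up to 0.18). With DESeq2 and with the filter of at least 1 CPM in 3 libraries it had no adjusted p, and no gene of the list was called higher. Of 17 genes of endosomal Toll-like receptor sensing, 11 were tested and 2 rose, with a median of 0.05. None was called lower in the main fit, but at least 1 was in 4 of the 12 other settings, and at most 2 were. The 2 that rose were Ctsb, which encodes the lysosomal protease cathepsin B, at 0.19 (adjusted p = 0.0196), and Rab7b, a small GTPase of endosomal traffic, at 0.44 (adjusted p = 0.021). Leaving out single libraries ended the call of Ctsb (control replicates 1 and 2, Irf1 siRNA replicates 1 and 3) and of Rab7b (control replicate 2, Irf1 siRNA replicate 3), with adjusted p up to 0.0869 and 0.106.

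All 29 listed adaptors and scaffolds downstream of MAVS, STING and TRIF were tested, and 2 rose and 4 fell, with a median of −0.01. Mfn2, a mitochondrial outer membrane GTPase that binds MAVS, fell from 83.1 ± 1.99 to 63.1 ± 3.19 CPM (log2 fold change −0.40, adjusted p = 1.5e-04). Ikbkg, which encodes the IKK scaffold NEMO, fell from 35.5 ± 1.61 to 26.3 ± 1.92 CPM (log2 fold change −0.43, adjusted p = 5.3e-04). Traf6 and Nfkb1 were the other 2 that fell, by 0.21 and 0.17 on the log2 scale. Traf3, the ubiquitin ligase between the adaptors and TBK1, rose from 49.98 ± 2.90 to 58.0 ± 0.790 CPM (log2 fold change 0.22, adjusted p = 0.0188). Removing control replicate 2, control replicate 3 or Irf1 siRNA replicate 3 ended that call (adjusted p up to 0.0995). Mfn1, a relative of Mfn2, rose by 0.19 (adjusted p = 0.0286). That call was lost with no filter on low counts and after removing any single library except Irf1 siRNA replicate 1 (adjusted p up to 0.115), while the log2 fold change stayed at 0.17 to 0.21 with 1 library removed. The substrates of TBK1 did not pass the threshold: Irf3 gave −0.04 (adjusted p = 0.727) and Irf7 0.05 (0.902).

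Of 28 negative regulators 26 were tested, and 4 rose and 2 fell, with a median of 0.00. The risers were Atg16l1, an autophagy gene (0.29, adjusted p = 0.00285), the deubiquitinase genes Otud5 (0.23, 0.00893) and Otub2 (0.29, 0.0168), and Ptpn11, which encodes the phosphatase SHP2 (0.20, 0.021). Without single libraries the calls of Otub2 and Ptpn11 were lost (control replicate 1 and Irf1 siRNA replicate 1 for Otub2, control replicates 1 and 2 and Irf1 siRNA replicate 3 for Ptpn11; adjusted p up to 0.0708 and 0.125). Tnfaip3, which encodes the NF-kB inhibitor A20, and Ppm1b were the 2 that fell, by 0.30 and 0.21 on the log2 scale.

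Of 34 interferons, receptors and response genes 25 were tested, and 2 rose and 4 fell, with a median of 0.00. The listed interferon genes Ifnb1, Ifna1, Ifna2, Ifna4, Ifnl2 and Ifnl3 had 0 counts in all 6 libraries, which allows up to 3 counts or 0.101 to 0.135 CPM in a library (counting error only). Parp9 and Dtx3l, partners in a ubiquitin ligase complex, were at −0.58 and −0.70 (adjusted p = 0.00138 and 0.00887). The apoptosis gene Xaf1 was at −0.75 (adjusted p = 0.0236), the antiviral tether gene Bst2 at −0.43, and the chemokine genes Ccl5 and Cxcl10 at 0.80 and 0.59. Calls of Xaf1 and Ccl5 were lost with DESeq2 (0.0554 and 0.0649) and without single libraries (adjusted p up to 0.0886 and 0.118). For Xaf1 these were control replicates 1 and 2 and Irf1 siRNA replicate 2, and for Ccl5 all but control replicate 3. In the PKR branch all 15 listed genes of the eIF2 alpha kinase axis were tested, and 1 rose and 1 fell, with a median of 0.05. Eif2ak4, the amino acid-sensing kinase GCN2, rose by 0.23 (adjusted p = 0.0343, lost without any 1 library except Irf1 siRNA replicate 1, up to 0.193), and Eif2b1 was at −0.23 (adjusted p = 0.012, lost without Irf1 siRNA replicate 3 at 0.0595). Eif2s1, the substrate of PKR, gave −0.05 (adjusted p = 0.633).

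Traf6, Nfkb1, Tnfaip3, Ppm1b, Bst2 and Cxcl10 were called close to the threshold and named after their values were seen. All but Cxcl10 lost the call with upper-quartile factors (adjusted p from 0.0547 to 0.0819), which left the adaptors with 2 genes that fell and the negative regulators with 0. Every one of these 6 calls was lost with DESeq2 (adjusted p from 0.0628 to 0.0943) and after removing either control replicate 2 or Irf1 siRNA replicate 3. Over all single libraries left out, their adjusted p reached 0.145 for Nfkb1, 0.132 for Tnfaip3, 0.123 for Traf6, 0.208 for Ppm1b, 0.206 for Bst2 and 0.21 for Cxcl10, with no change of sign.

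**Figure D5:**
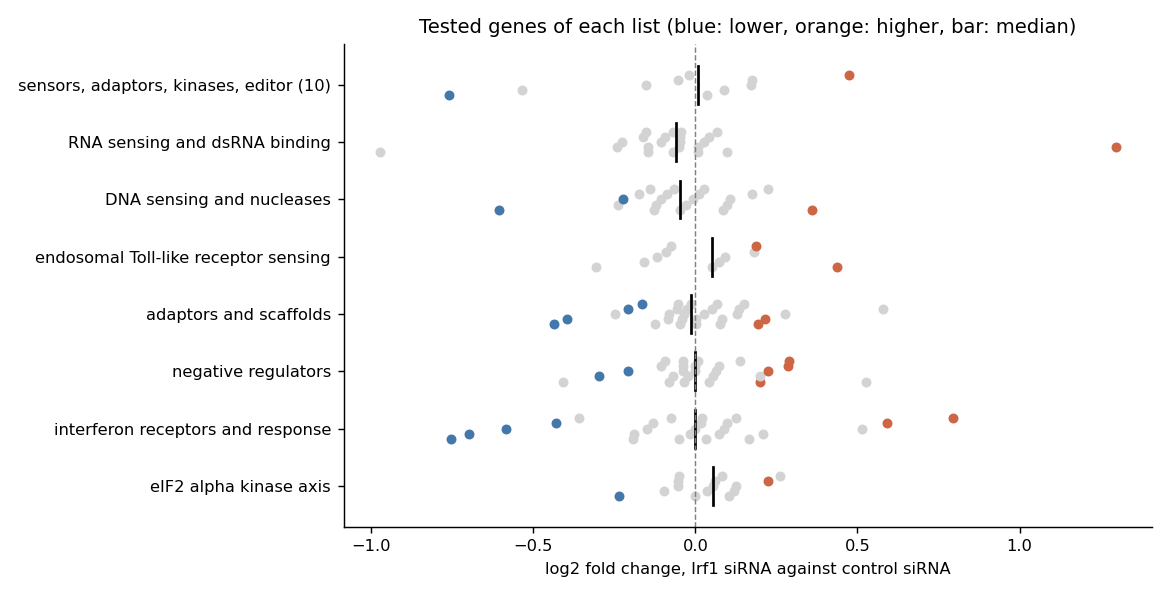
Log2 fold change of every tested gene of the 10 and of the 7 pathway lists; blue points fell and orange points rose at an adjusted p under 0.05, grey points did not pass, and the bar is the list's median. All medians lie between −0.06 and 0.05, and most points lie near 0.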

How the data were processed

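The 6 libraries were made with a stranded kit for polyadenylated RNA, per the labels' protocols. What the authors deposited is raw read counts by gene, 1 table for each library, with gene symbols and Ensembl identifiers. Trimmomatic 0.39, FastQC, STAR and build GRCm39 are named in the submitters' processing notes; for the counting tool, annotation and strand setting, nothing is given in the sources used here. The tests were run with edgeR 4.0.16 under R 4.3.3: filterByExpr (14683 genes kept, at least 99.91% of each library's counts), TMM factors, and the robust quasi-likelihood test, two-sided, with a single group term; p-values were adjusted by the Benjamini-Hochberg method across the tested genes. An SE is the absolute log2 fold change over the square root of F, and intervals are at 95%. The fits were tested on simulated data.

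Alternatives were DESeq2 1.42.0, RLE and upper-quartile factors, 2 other filters (none, and at least 1 CPM in 3 libraries), a replicate block and leaving out each library. A single value in 3 against 3 cannot reach a permutation p below 0.1, so genes were tested only in the fit across genes. The members and lists were chosen with earlier results of these data known. Named genes are the 10 members, Irf1, up to 4 called genes of each list with the smallest p, and Irf3, Irf7, Ifnb1, Traf3, Ticam1 and Eif2s1; others were named after their values were seen. GENCODE M21 (GRCm38) gave exon lengths, overlaps and words by identifier (14653 of 14683 tested genes matched). Markers of endothelial cells (7 genes, 2 tested) and osteoclasts (5 genes, 2 tested) gave no call. One marker of the plasmacytoid dendritic and lymphoid list is not reported here.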

Additional observations from a re-analysis of the deposited data

How the results depend on the processing

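The fall of Tlr3 kept its side of the threshold in all 12 other settings, with log2 fold changes from −0.84 to −0.71 and adjusted p from 1.3e-04 to 0.0151, as did that of Irf1. The count of members that rose went from 1 to 0 with DESeq2, with no filter on low counts and without any 1 library, because the call of Cgas was lost there. Its log2 fold change was 0.48 (adjusted p = 0.0878) with DESeq2 and 0.46 (adjusted p = 0.0689) with no filter, and 0.41 to 0.54 with 1 library left out. The count of members that fell was 1 throughout. Leaving out 1 library gave log2 fold changes of −0.0499 to 0.0077 for Tbk1, −0.0083 to 0.3555 for Dhx58, −0.0929 to 0.0247 for Irf3, −0.0478 to 0.2505 for Irf7 and −0.1095 to 0.0223 for Eif2s1. Tbk1 was also at 0.0071 with upper-quartile factors. For the other members it gave −0.73 to −0.32 for Ifih1, 0.07 to 0.29 for Ikbke, 0.01 to 0.13 for Sting1, −0.22 to −0.09 for Eif2ak2, −0.08 to −0.04 for Mavs and 5e-04 to 0.08 for Adar. None of these genes passed the threshold in any setting. Genes called over the 7 lists numbered 26, 17 with DESeq2 and 10 to 23 with 1 library left out (13 without control replicate 1, 10 without control replicate 2, 10 without Irf1 siRNA replicate 3). Genes called higher over all genes numbered 980 if control replicate 2 was left out and 959 if Irf1 siRNA replicate 3 was, against 1522. The cause was not tested.

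Same-numbered libraries did not deviate together in all pairs (correlations 0.30, −0.09 and 0.07 across genes). Control replicates 2 and 3 correlated best with Irf1 siRNA replicates 1 and 2, so the numbers were not taken as pairs. With the replicate block the members called were again 1 higher and 1 lower, the lists gave 30 and all genes 3728, against 3289. Ifih1 and Dhx58 had 16 to 51 counts in a library.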
